A study of Mus musculus with 5 samples.

Results

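Sim1, Sim2, Otp, Arnt2 and Pou3f2 are 5 transcription factor genes known from the making of neurons of the paraventricular hypothalamus, and they are described here across 5 single-nucleus RNA libraries of that region. They were chosen by symbol among the 31054 features of the count matrices, and each symbol had 1 row. All 5 were detected in neuron-like nuclei of every library. Sim1 and Otp shared the same neuron clusters, Sim2 was concentrated in 1 cluster beside them, Arnt2 was broad over neurons and glia, and Pou3f2 was highest in Avp neurons among neurons and was also found in astrocytes.

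The labels name 4 groups of male mice on a C57BL6 background that all carried OT-Cre, a Cre driven by the oxytocin gene. In the first experiment OT-Cre; Ai9 mice (Rosa26tm9(CAG-tdTomato)Hze), whose Cre-dependent tdTomato guided the dissection, were exposed on gestation day 12.5 to saline (10 mL/kg given to the dam) or to valproic acid (VPA, 500 mg/kg), and were sampled at 5 weeks. In the second, OT-Cre; stop-hM3 mice (Rosa26dreaddm3), which carry a Cre-dependent hM3 receptor that clozapine N-oxide (CNO) activates, were all exposed to VPA before birth. Pups of this line got saline (hM3 control) or CNO at postnatal day 2, and tissue was taken at 5 to 7 weeks of age. Their labels add AAV delivery to the paraventricular and supraoptic areas without saying what the virus carried. Each library pooled nuclei of 2 to 4 mice, sorted on DAPI with a gate that preferred larger nuclei. Saline, VPA and hM3 control had 1 library each, and CNO had 2.

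SIM1 and SIM2 belong to the bHLH-PAS family and bind DNA as partners of ARNT-type proteins, of which ARNT2 is the brain form. OTP is a homeodomain factor and POU3F2, also called BRN2, a POU-domain factor. In the mouse, Sim1, Otp and Arnt2 are each required for the neuroendocrine neurons of the paraventricular and supraoptic nuclei, Sim1 acts upstream of Pou3f2 there, and loss of Pou3f2 removes the oxytocin, vasopressin and corticotropin-releasing hormone neurons. Sim2 is the close relative of Sim1 and is known for a narrower domain in the same region.

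On GRCm38 (mm10) with the GENCODE vM21 annotation, Sim1 (ENSMUSG00000019913) lies on chromosome 10 from 50894754 to 50989152 on the plus strand, with up to 11 exons in a transcript. Sim2 (ENSMUSG00000062713) lies on chromosome 16 from 94084931 to 94127032 on the plus strand and also has up to 11 exons. Otp (ENSMUSG00000021685) lies on chromosome 13 from 94875602 to 94885130 on the plus strand with up to 3 exons. Arnt2 (ENSMUSG00000015709) spans 163899 bases of chromosome 7, from 84246278 to 84410176 on the minus strand. Pou3f2 (ENSMUSG00000095139) is a single-exon gene on chromosome 4 from 22482780 to 22488366 on the minus strand. Only Arnt2 overlaps other annotated genes, Gm25790 on its own strand and the antisense gene Gm30873, which is a feature of the matrices. Since strand use in the counting is not given in the sources used here, reads of Gm30873 and Arnt2 could not be told apart. Levels in CPM (UMIs of a gene scaled to a fixed total) depend on gene length and on whether intronic reads were counted, so levels are compared within a gene and never between genes.

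Upstream sequence is shown for the 4 members that RefSeq's promoter table (GRCm38.p6) holds, because Sim1, Otp and Pou3f2 levels went together across neurons. Each is the stretch of the 250 bases before the RefSeq start that no GENCODE exon covers, 5′ to 3′ on the gene's strand. Capitals mark ACGTG, the core of the element bound by SIM and ARNT proteins, on either strand.
Sim1: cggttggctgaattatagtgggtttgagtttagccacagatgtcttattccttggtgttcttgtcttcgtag
Otp: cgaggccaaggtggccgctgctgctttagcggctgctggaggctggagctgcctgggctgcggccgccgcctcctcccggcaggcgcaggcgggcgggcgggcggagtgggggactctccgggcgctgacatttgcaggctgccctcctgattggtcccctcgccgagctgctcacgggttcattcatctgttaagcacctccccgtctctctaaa
Arnt2: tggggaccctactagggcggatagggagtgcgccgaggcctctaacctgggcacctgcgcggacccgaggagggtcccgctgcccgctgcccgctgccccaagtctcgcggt
Pou3f2: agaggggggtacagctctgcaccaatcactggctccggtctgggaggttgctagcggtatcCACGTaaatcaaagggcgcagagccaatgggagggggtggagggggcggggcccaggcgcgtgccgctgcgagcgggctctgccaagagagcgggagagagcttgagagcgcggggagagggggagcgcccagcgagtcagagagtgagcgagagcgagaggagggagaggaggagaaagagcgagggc
The Sim1 stretch lies inside the gene's GENCODE span, in an intron of a transcript that starts further upstream. The last printed base lies 179, 35, 139 and 1 bases before the RefSeq start in turn. The printed stretches are chr10:50895401-50895472 (plus strand) for Sim1, chr13:94875386-94875601 (plus) for Otp, chr7:84410177-84410288 (minus) for Arnt2 and chr4:22488367-22488616 (minus) for Pou3f2. In the whole 250-base windows the ACGTG core was present only for Pou3f2, 1 match, starting 189 bases before the start, and 16.6% of 32851 RefSeq windows of the same length hold it. The POU octamer ATGCAAAT (1.6% of windows) and the homeodomain core TAATTA (4.84% of windows) were in none of the 4. These searches covered both strands, none of the 3 motifs contains another, and absence says only that these letters are not in this window.

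The matrices hold raw UMI counts of 4440 to 10904 nuclei per library, with 52506958 to 76243280 UMIs in all. Median UMIs per nucleus before filtering were lowest in CNO replicate 2 (3722) and VPA (5451), and 11070 or more in the other 3. After filters 29484 nuclei were kept, of which 18878 were neuron-like and 6379 glia-like from marker genes, the others being vascular, fibroblast, ependymal, mixed or unnamed. Neuron markers were high in the former: Syt1, a synaptic vesicle gene, lay at 2387 to 2616 CPM in neuron-like nuclei of the 5 libraries against 242 CPM in glia-like nuclei. Any pair of libraries shared 4 to 23 barcodes, at most 0.374% of the smaller library. The VPA comparison, with 1 library in each arm, has no test, and the CNO comparison sets 2 libraries against 1. Intervals are exact 95% intervals of counting error, and p-values measure only the spread between libraries. Fewer nuclei expressing a gene and less RNA per nucleus cannot be told apart in the sums over neurons.

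Sim1, the bHLH-PAS regulator that gives the lineage its name, was a neuronal gene with a large range between libraries. In neuron-like nuclei it was at 134.5 CPM in saline, 108 in VPA and 95.25 in the hM3 control, while the CNO libraries had 49.3 (replicate 1) and 83.2 (replicate 2). In glia-like nuclei it was at 4.14 to 11.1 CPM. The highest glial value lay below the lowest neuronal value. With each nucleus thinned to 2000 UMIs, 7.54 to 16.8% of neuron-like nuclei per library had a Sim1 UMI, against 0.579 to 1.81% of glia-like nuclei. Unthinned shares were 17.1 to 32.5% in neurons (median 6189 to 17195 UMIs) and 1.06 to 2.16% in glia (median 1958 to 4546 UMIs).

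Otp was at 9.05, 9.91, 7.86, 4.18 and 6.81 CPM in neuron-like nuclei, in library order (saline, VPA, hM3 control and the CNO libraries 1 and 2), and at 1.04 to 4.95 CPM in glia-like nuclei. Its glial and neuronal ranges touched, since VPA glia (4.95) exceeded CNO replicate 1 neurons (4.18). At 2000 UMIs 0.887 to 1.9% of neuron-like nuclei held an Otp UMI and 0.116 to 1.33% of glia-like nuclei. A single nucleus without an Otp UMI is therefore not shown to lack Otp at this depth.

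Sim2 was sparser still, at 3.77, 4.61, 3.66, 2.31 and 2.41 CPM in neuron-like nuclei in the same order. It was at 0 to 1.59 CPM in glia-like nuclei, where CNO replicate 1 had no UMI in 566 nuclei, which allows a level of up to 0.954 CPM if 3 counts of its total are taken as the limit (exact 95% upper bound 1.17 CPM). Neuronal shares at 2000 UMIs were 0.403 to 0.878%.

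Arnt2, the dimer partner, was not neuron-specific. It was at 170.5, 180.1, 186.5, 141.9 and 147 CPM in neuron-like nuclei in library order, and at 168 to 237.5 CPM in glia-like nuclei, so the ranges overlapped. Among glia it was at 218 ± 29.2 CPM in astrocyte-like nuclei, 194 ± 32.1 in oligodendrocyte progenitor-like nuclei and 37.8 ± 31.4 in microglia-like nuclei (SD over 5 libraries). The microglia values, 6.08 to 81.9 CPM, all lay below the astrocyte values, 191 to 265 CPM.

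Pou3f2 was higher in the glia-like set, mostly astrocyte-like nuclei, than in neurons taken as a whole. It was at 12.6, 10.9, 12.9, 6.92 and 14.1 CPM in neuron-like nuclei in the same order and at 44.8 to 68.4 CPM in glia-like nuclei, without overlap. The glial level came from astrocyte-like nuclei, at 70.8 ± 5.97 CPM (SD, n = 5 libraries), with 24.1 ± 7.95 in oligodendrocyte progenitor-like nuclei and 1.13 ± 1.54 in oligodendrocyte-like nuclei. Only 2 Pou3f2 UMIs were counted in 345 oligodendrocyte-like nuclei. An unnamed cluster of 2246 nuclei, high in 8 oligodendrocyte markers, was not part of the glia-like set. It had Pou3f2 at 2.66 CPM, and 771 of its nuclei were from CNO replicate 1. With it included, the glial level of Pou3f2 would be lower, and that level was not computed.

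**Figure D1:**
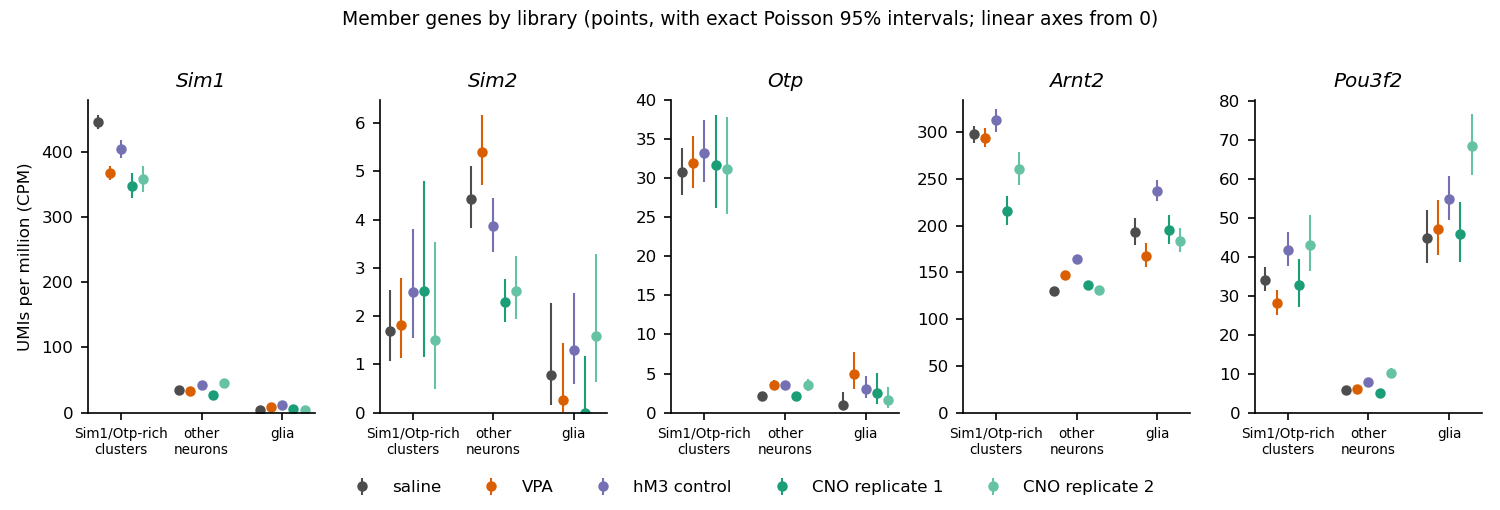
CPM of each member (vertical axes, linear from 0, own scale per gene) in the neuron clusters rich in Sim1 and Otp, in all other neuron-like nuclei and in glia-like nuclei, 1 point per library with its exact Poisson 95% interval. Outside the rich clusters Otp lies within its glial range and Sim1, at 26.9 to 45.6 CPM, above it. In the glia-like set, which leaves out unnamed nuclei, Arnt2 exceeds that of other neurons and Pou3f2 exceeds both neuron sets in every library.

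To see which neurons carried the genes, neuron-like nuclei were clustered without the 5 members, Oxt and Avp. This gave 59 clusters, each named here by its 2 leading genes, and levels are means over libraries with at least 10 nuclei in the cluster. The clusters come from these same nuclei and all libraries, so their levels are a description with no test. Clusters with Sim1 and Otp both at 2 or more times their mean over clusters are called Sim1/Otp-rich. There were 11 of these, with 3552 nuclei, or 18.8% of neuron-like nuclei. The cluster just inside was Ebf1/Unc13c (Sim1 2.08 times and Otp 2.75 times the mean) and the cluster just outside Col6a5/Ebf1 (Sim1 2.97 times, Otp 1.95 times). By this choice the rich clusters held 68.9% of the Sim1 UMIs and 68.5% of the Otp UMIs of neurons. They also held 50.8% of the Pou3f2 UMIs, 28.7% of the Arnt2 UMIs and 9.36% of the Sim2 UMIs, none of which the choice had used.

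Transmitter genes were read in the rich clusters as levels of each gene. Slc17a6, the vesicular glutamate transporter of the region, was at 51.2 to 138 CPM in them, and Slc32a1, the vesicular GABA transporter, at 1.47 to 5.77 CPM. Gad2, a GABA synthesis gene, was at 18.5 to 109 CPM, the highest in Pde3a/Calcr. The rich clusters included several peptide classes of the paraventricular nucleus. The Avp/Pla2r1 cluster had Avp (vasopressin) at 1009 CPM, Oxt/Myocd had Oxt (oxytocin) at 861 CPM, and Esr2/Foxp2 had Oxt at 208.8 CPM. Rxfp2/Col12a1 had Sst (somatostatin) at 152 CPM, and Egfr/Ppp1r17 and Ucn3/Etv1 had Trh (thyrotropin-releasing hormone) at 75.7 and 46.9 CPM. Crh (corticotropin-releasing hormone) was low, highest in Agtr1a/Tns1 at 17.2 CPM and next in Pde3a/Calcr at 8.71 CPM.

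Sim1 was highest in Avp/Pla2r1, at 795 ± 137 CPM (SD, n = 5 libraries). By library that cluster was at 969 in saline, 801 in VPA, 756 in the hM3 control, and 854 and 595 in the CNO libraries. Oxt/Myocd followed at 573 ± 114 CPM (n = 5) and Ucn3/Etv1 at 508 ± 85.8 (n = 4). The step from the first to the second exceeded the larger SD of the neighbours, the step from the second to the third did not, and the step from the third to the fourth did. From the fourth, Pde3a/Calcr at 414 ± 46.5, to the tenth, Col6a5/Ebf1 at 308 ± 44.7, only the step below Aox3/Ebf3 exceeded the spread. Its median over the 59 clusters was 9.69 CPM, within the range measured in glia.

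Otp was highest in the Sst cluster Rxfp2/Col12a1, at 50.2 ± 14.3 CPM (n = 4), then in the Trh cluster Egfr/Ppp1r17 at 48.3 ± 1.14 (n = 4), Avp/Pla2r1 at 43.2 ± 14.8 (n = 5) and Oxt/Myocd at 42.9 ± 11.1 (n = 5). No neighbours among the 7 highest clusters differed by more than their SD. Ucn3/Etv1, led by Ucn3 and also with Trh, had 32.7 ± 5.63 CPM (n = 4) and the Oxt cluster Esr2/Foxp2 32.1 ± 3.73 (n = 5), each below Egfr/Ppp1r17 by more than the larger SD. The median of Otp over the 59 clusters was 1.58 CPM.

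Pou3f2 was highest in the Avp cluster, and its range over the other peptide clusters was wide. It was at 105.5 ± 12.5 CPM in Avp/Pla2r1 (n = 5), and its 5 library values there were 111, 89.8, 115, 117 and 94.5 CPM. Oxt/Myocd had 55.7 ± 7.73 and Esr2/Foxp2, the other Oxt cluster, 43.7 ± 1.94. Ucn3/Etv1, led by Ucn3 and also with Trh, had only 6.51 ± 6.63 CPM, close to the median over all clusters of 6.27, and the Sst cluster Rxfp2/Col12a1 13.9 ± 1.86. The Trh cluster Egfr/Ppp1r17 stood at 47.9 ± 23.1, so the 2 rich clusters highest in Trh differed by more than the larger SD. Slc6a3/Bnc2, at 82.7 CPM, had all its 37 nuclei in CNO replicate 2 and has no spread. Slc6a3 encodes the dopamine transporter.

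Arnt2 ranged from 32.25 to 718 CPM over the 59 clusters, with a median of 161 CPM, and its lowest cluster lay within the range of microglia-like nuclei. Agtr1a/Tns1 stood apart at 718 ± 87.8 CPM (n = 4), named for the angiotensin receptor gene, with 709, 799, 767 and 599 CPM in saline, VPA, hM3 control and CNO replicate 2. CNO replicate 1 had 3 nuclei there and gave no value. Egfr/Ppp1r17 was next at 519 ± 98.4 (n = 4), and both steps down from these clusters exceeded the SD. Avp/Pla2r1 followed at 340 ± 7.89. The Arnt2 peak was therefore in a cluster with the lowest Otp of the rich clusters, 18.3 CPM.

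Sim2 was concentrated in Col6a5/Ebf1, at 82 ± 7.58 CPM (n = 5), with 91.9, 87.3, 80.1, 73 and 77.8 CPM in library order. These 521 nuclei held 59.2% of all neuronal Sim2 UMIs. The next cluster, Pld1/Agtr1a, was at 21.6 ± 24.9 CPM, where the value rested on saline (58.3 CPM in 11 nuclei). Col6a5/Ebf1 also had Sim1 at 308 CPM, Otp at 16.7 CPM, Slc17a6 at 93.5 CPM and Trh at 33 CPM, but Pou3f2 at only 4.25 CPM. It was thus a Sim1 cluster that missed the Otp limit narrowly.

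**Figure D2:**
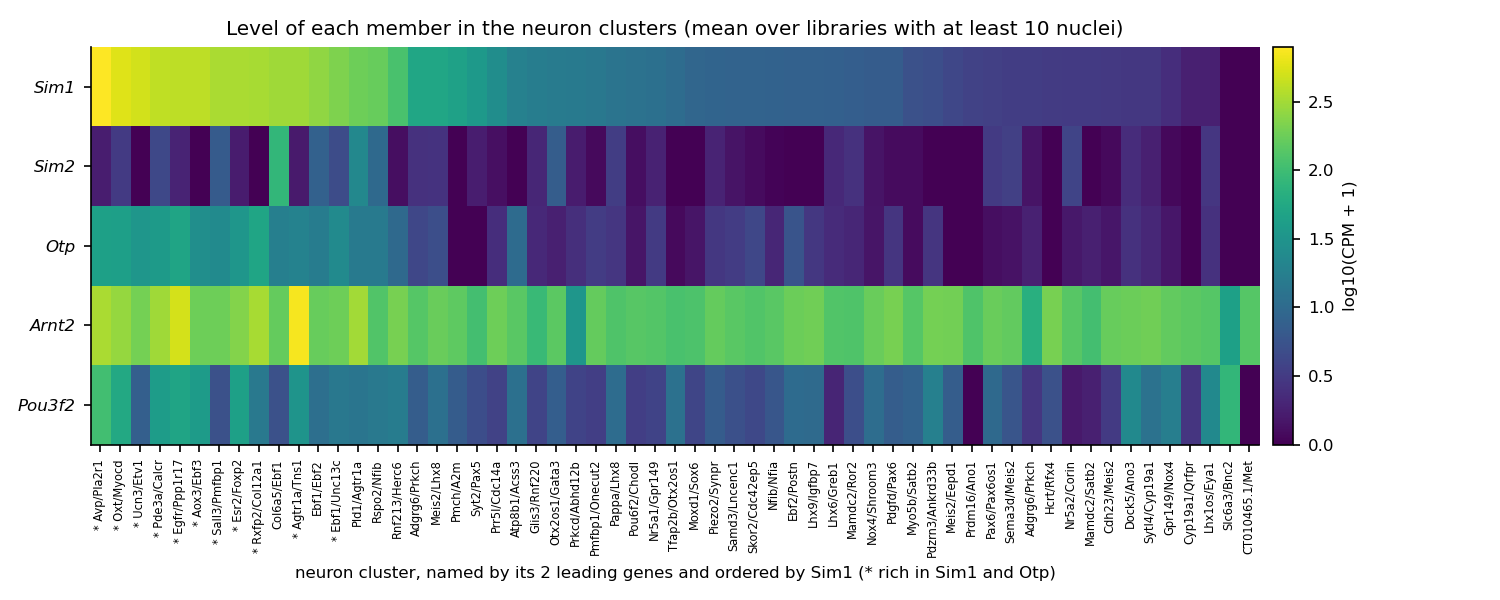
Mean level of each member (colour, log10 of CPM + 1) in the 59 neuron clusters, ordered from left by Sim1, with stars for the Sim1/Otp-rich clusters. Otp is bright in the starred clusters, though not in the Sim1 order, Sim2 is bright in Col6a5/Ebf1, Arnt2 is spread over the columns, and Pou3f2 peaks in Avp/Pla2r1.

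Genes most like each member were ranked by Pearson r of log2(CPM + 10) over the 59 clusters among 13755 genes, as a description, since clusters share libraries and depth. Sim1 and Otp were each the most like the other (r = 0.937). Within the 11 rich clusters, where both are high by choice, r was 0.537. After Otp, Sim1 was most like Cerkl (0.728), F13a1 (0.72), the homeobox gene Uncx (0.717) and Tnfrsf1b (0.709). After Sim1, Otp was most like the bHLH gene Nhlh2 (0.734), Gm49144 (0.731), Uncx (0.726) and Wipi1 (0.713).

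Sim2 was most like Cldn14, a tight junction claudin (r = 0.963), well ahead of 6030407O03Rik (0.697), Gm35041 (0.651), Clca3a2 (0.649) and Hpgd (0.643). Cldn14 lies on the same chromosome, 16, from 93919031 to 94008837 on the minus strand, with 76.1 kb and no other protein-coding gene between it and Sim2. None of the other genes named as most like a member lay on that member's chromosome except Gm49144, 57990 kb from Otp. Arnt2 was most like Stxbp5 (0.832), a syntaxin-binding gene, then Tnpo1 (0.754), the potassium channel gene Kcnh1 (0.746), Dip2c (0.746) and Baz2b (0.722). Pou3f2 was most like Icam2 (0.736), Gm44593 (0.71), Tns1 (0.658), the POU gene Pou6f1 (0.651) and Slc16a6 (0.647).

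Between members, r over the 59 clusters was 0.621 for Otp and Arnt2, 0.62 for Otp and Pou3f2, 0.57 for Sim1 and Arnt2 and 0.543 for Sim1 and Pou3f2. Sim2 stood apart, with r of 0.361 to Sim1, 0.258 to Otp, 0.0985 to Arnt2 and -0.0197 to Pou3f2.

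Whether the members were seen in the same nuclei was measured after thinning 18770 neuron-like nuclei to 2000 UMIs, which left out 108 shallower nuclei (2, 26, 11, 15 and 54 in library order). Of 10 pairs, 7 were found together more often than the 2 shares predict in each of the 5 libraries. At 1000 UMIs 4 pairs were, and in glutamatergic nuclei 4. Sim1 and Otp had the largest excess, 143 nuclei with both against 39.4 expected, or 3.63 times. By library, 36, 66, 20, 11 and 10 nuclei had both where 9.92, 18.7, 5.22, 1.66 and 3.9 were expected. Of nuclei with an Otp UMI 47.4% had a Sim1 UMI, and of all neurons 12.7%.

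Sim1 and Pou3f2 were together 2.57 times the number predicted (135 nuclei against 52.5) and Sim1 and Sim2 2.23 times (39 against 17.5). Otp and Pou3f2 were together 2.44 times as often, but in only 16 nuclei. In glutamatergic nuclei Sim1 and Sim2 were together in 14 nuclei against 12.7 expected, above it in 2 libraries, with a mean log2 ratio over libraries of -0.26. That of Otp and Pou3f2 was -0.11 at 1000 UMIs. The 3 pairs of Arnt2 with Sim1, Otp and Pou3f2 were at 1.42, 1.41 and 1.4 times. Sim2 with Arnt2 (0.921 times), Pou3f2 (1 nucleus with both) or Otp (5 nuclei) was not above the expected number in every library. For each of the 7 pairs the exact sign-flip permutation test over 5 libraries gave a two-sided p of 0.0625, the smallest it can give, and 0.0893 after Benjamini-Hochberg adjustment over the 10 pairs. The adjusted threshold of 0.05 is therefore out of reach of this design.

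Most of the excess lay between clusters. Against the number expected from the shares within each neuron cluster, an alternative added after seeing the data, Sim1 and Otp were together 1.19 times as often (143 against 121), in 4 of 5 libraries above 1. Sim1 and Pou3f2 were at 1.09 times and were the only pair above the expected number in all 5 libraries. Sim1 and Sim2 were below it, at 0.824 times (39 against 47.3), and were above it in 1 library.

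**Figure D3:**
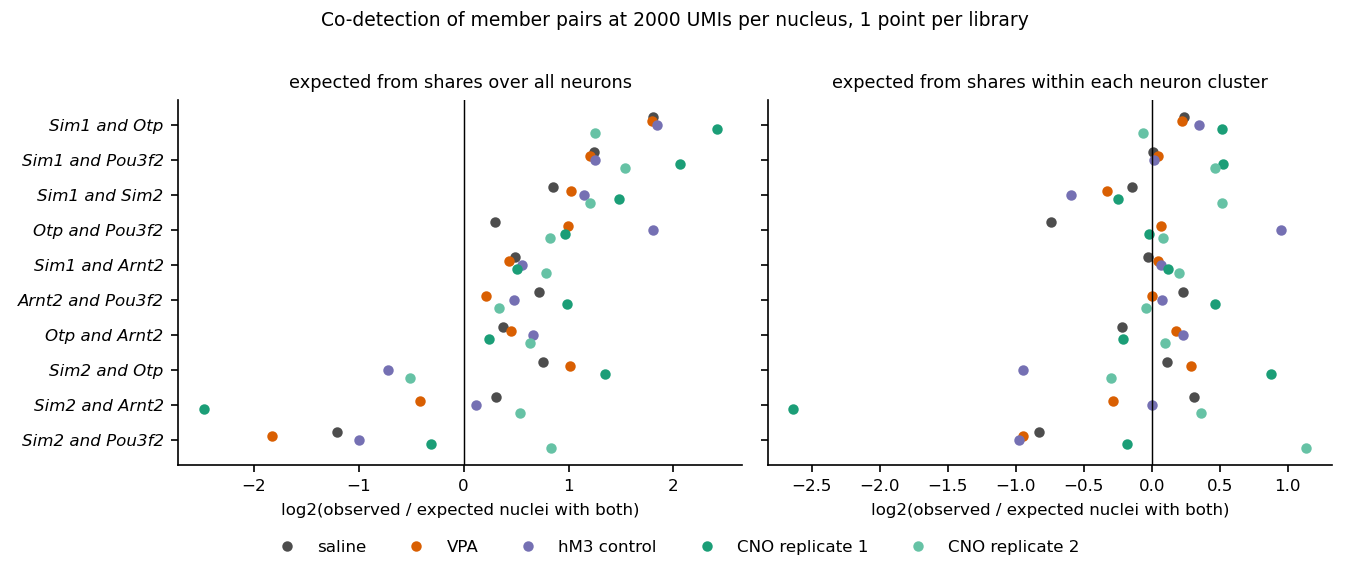
Observed over expected number of nuclei with both genes (horizontal axis, log2, 0.5 nuclei added to each number) for the 10 member pairs, 1 point per library. On the left, with the expected number from all neurons, 7 pairs lie right of 0 in all 5 libraries, and on the right, with the expected number taken within clusters, only Sim1 and Pou3f2 do.

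The same thinned nuclei were summed per library into those with and without a UMI of a member, and every other gene was tested between the 2 sums with edgeR's quasi-likelihood test, the library being a block and p adjusted over all genes (Benjamini-Hochberg). Nuclei with a Sim1 UMI numbered 2389 (187 to 983 per library) and those without 16381. Among 12319 genes 679 were higher, or 5.51%, and 834 lower, or 6.77%. All 4 other members were among the higher genes. Otp was at 29.7, 37.2, 29.35, 29.4 and 21 CPM with Sim1 and at 3.79, 6, 5, 2.4 and 6.58 CPM without it, in library order. That is a log2 fold change of 2.62 ± 0.20 (SE, edgeR adjusted p 7.73e-16), and the groups did not overlap.

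Pou3f2 was at 32.8, 23.4, 30.8, 29.4 and 48.35 CPM with Sim1 and at 4.14 to 10 CPM without it (log2 fold change 1.80 ± 0.18, edgeR adjusted p 7.9e-12). Arnt2 was at 203 to 324 CPM with Sim1 and at 131.5 to 181 CPM without it (0.76 ± 0.06, adjusted p 8.23e-14). Sim2 was at 7.04 to 10.7 CPM against 1.74 to 4.05 CPM (1.51 ± 0.30, adjusted p 0.000153), from 3 to 21 UMIs per library. All 4 were higher in 5 of 5 libraries. Among nuclei with a UMI of Slc17a6 and none of Slc32a1, Gad1 or Gad2, Otp (1.76 ± 0.31), Pou3f2 (1.54 ± 0.29) and Arnt2 (0.78 ± 0.11) again passed the test, as 3.82% of 8303 genes did on the higher side, while Sim2 was not among the genes tested.

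Grouping by Otp, with 302 nuclei against 18468, called 67 genes higher of 11402 (0.588%), and Sim1 (2.01 ± 0.14, edgeR adjusted p 2.11e-44) and Arnt2 (0.57 ± 0.14, adjusted p 0.0062) were among them. The Arnt2 call was lost without saline (log2 fold change 0.49, adjusted p 0.164) or the hM3 control (0.54, adjusted p 0.0695), without the filter on low counts (0.44, adjusted p 0.168) and without the library block (0.62, adjusted p 0.154). It was also lost in glutamatergic nuclei (0.37, adjusted p 0.788) and at 1000 UMIs (0.26, adjusted p 0.823). Pou3f2 was higher in 5 of 5 libraries but did not pass (1.17 ± 0.47, adjusted p 0.272). At 4000 UMIs per nucleus it passed (1.21 ± 0.23, edgeR adjusted p 1.25e-05). With Arnt2, 5241 nuclei against 13529, 1.64% of 12762 genes were higher, Sim1 (0.82 ± 0.06), Pou3f2 (0.77 ± 0.16) and Otp (0.75 ± 0.17) among them and Sim2 (-0.07 ± 0.29) not. Without the library block none of the 3 passed, at log2 fold changes of 0.87, 0.85 and 0.80 and edgeR adjusted p of 0.954, 1 and 1. Pou3f2 also did not pass at 1000 UMIs (0.57, adjusted p 0.398) or without saline (0.62, adjusted p 0.0574), nor Otp at 1000 UMIs (0.71, adjusted p 0.412) or in glutamatergic nuclei (0.91, adjusted p 0.0592). With Pou3f2, 400 nuclei against 18370, 79 were higher of 11563 (0.683%), Sim1 (1.65 ± 0.13) and Arnt2 (0.54 ± 0.13) among them, and Otp (1.22 ± 0.47, adjusted p 0.233) did not pass. At 4000 UMIs Otp passed (1.16 ± 0.25, edgeR adjusted p 0.00201). The Arnt2 call with Pou3f2 was lost without saline (0.44, adjusted p 0.148), in glutamatergic nuclei (0.60, adjusted p 0.118), without the filter (0.45, adjusted p 0.0635), without the block (0.60, adjusted p 0.254) and at 1000 UMIs (0.31, adjusted p 0.695). With at least 2 UMIs of Pou3f2 it was at -0.33.

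Grouping by Sim2 rested on 134 nuclei (10 to 65 per library) and called 51 genes higher of 11098 (0.46%). Sim1 was the only member among them (0.88 ± 0.26, edgeR adjusted p 0.0307, higher in 5 of 5 libraries). In glutamatergic nuclei alone its sign turned, to -0.72 ± 0.47 (adjusted p 0.531). Without the VPA, hM3 control, CNO replicate 1 or CNO replicate 2 library the call was lost as well, with the log2 fold change at 0.72 to 0.92. It was kept by DESeq2 (1.17, adjusted p 0.0116) and at 4000 UMIs per nucleus (1.39 ± 0.13, edgeR adjusted p 2.92e-24). The call was also lost without the filter on low counts (adjusted p 0.161) and without the library block (adjusted p 0.167). The median log2 fold change over all genes in this grouping was -0.29, against 0.0014 in the grouping by Sim1.

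**Figure D4:**
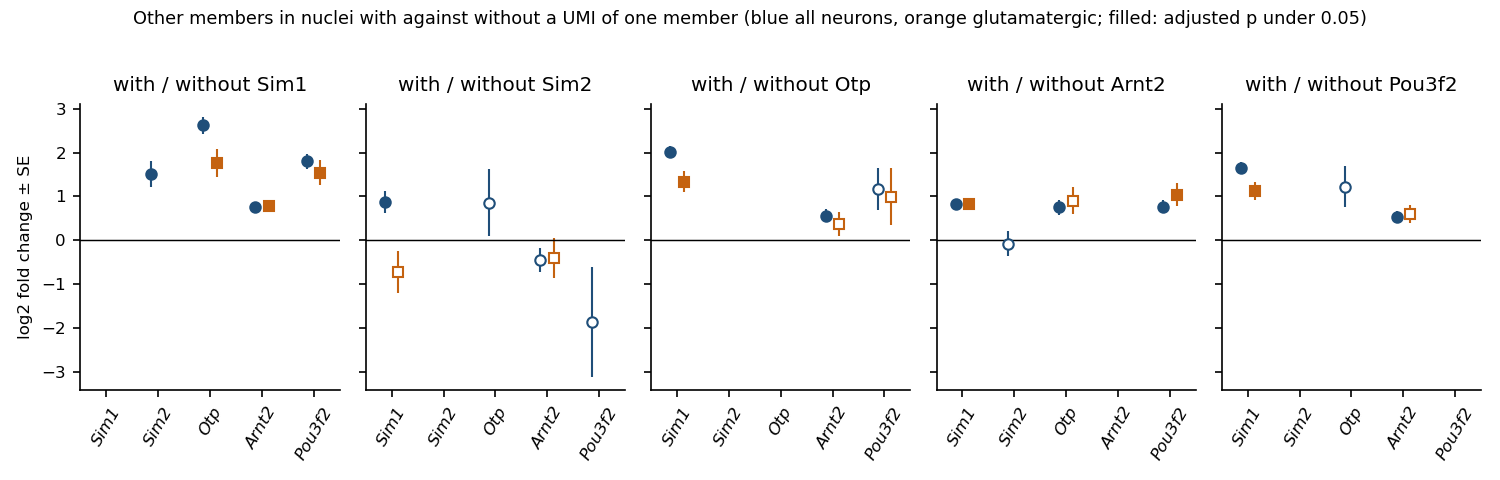
Log2 fold change (vertical axis, ± SE) of the other members between nuclei with and without a UMI of the gene named above each panel, for all neuron-like nuclei (blue circles) and glutamatergic nuclei (orange squares), filled where the edgeR adjusted p is under 0.05. Sim1 is the member called in every other panel for all neurons, and only the Sim2 panel has values below 0 beyond their SE.

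The rest of the family and the peptide genes were read in the same comparison by Sim1, from lists chosen with earlier results known. Of 18 other bHLH-PAS genes 15 were tested, 2 rose (Arnt2 and Sim2) and 3 fell, where 5.51% of all genes tested rose and 6.77% fell. The 3 were the circadian genes Arntl (-0.44 ± 0.10) and Npas2 (-0.52 ± 0.11), and Npas3 (-0.23 ± 0.07). The median of the list was -0.0281 against 0.0014 for all genes. Arnt, the other dimer partner of SIM proteins and named here after its values were seen, was at -0.05 ± 0.08 (adjusted p 0.815). Of 10 POU genes 5 were tested. Pou6f1 rose with Pou3f2 (0.49 ± 0.09). Among glutamatergic nuclei alone Npas2 fell again (-0.73 ± 0.19, edgeR adjusted p 0.00528). Arntl (-0.38 ± 0.18, adjusted p 0.232) and Npas3 (-0.09 ± 0.11, adjusted p 0.756) no longer passed there.

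Of 12 peptide genes 8 were tested, and 4 rose in nuclei with Sim1, where 5.51% of all genes tested did, by log2 fold changes of 2.80 ± 0.13 for Avp, 2.36 ± 0.30 for Trh, 2.15 ± 0.37 for Pdyn (prodynorphin) and 2.08 ± 0.12 for Oxt. None fell, and the median was 1.36. Of 16 effector genes of the region 9 of the 12 tested rose and none fell. Among them were Ebf3 (2.23 ± 0.12) and Ebf1 (1.74 ± 0.11), which encode helix-loop-helix factors, Bdnf (1.29 ± 0.18) and the nitric oxide synthase gene Nos1 (1.18 ± 0.12). The median was 0.921. In glutamatergic nuclei alone 5 of 10 tested rose, where 3.82% of 8303 genes did, with a median of 0.468 beside 0.0173 over all genes. Ebf3 was at 1.25 ± 0.15 and Nos1 at 0.62 ± 0.18 there, and Bdnf (0.32 ± 0.22, edgeR adjusted p 0.465), Ebf2 (-0.13 ± 0.19) and Slc17a6 (0.02 ± 0.10) no longer passed, the last being used to choose these nuclei.

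Transcription factors of other forebrain regions went the other way. Of 26, 11 were tested, 10 fell, where 6.77% of all genes tested did, and none rose, with a median of -1.97. Tcf7l2, a thalamic marker, fell by 3.28 ± 0.18, Isl1 by 2.78 ± 0.27 and Meis2 by 2.78 ± 0.13 on the log2 scale. The genes with the largest log2 fold change among those called higher were Pla2r1 (3.65 ± 0.31), Dnah8 (3.15 ± 0.27), Avp, Gm43122 (2.62 ± 0.18) and Otp. Those called lower were Gm20658, Gm19303, G630016G05Rik, Gm12128 and Tcf7l2, of which the first 4 had 2 to 4 UMIs in nuclei with Sim1.

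The VPA comparison asked whether prenatal exposure altered the region's gene expression. Sim1 was lower after VPA in neuron-like nuclei, 108 CPM (95% interval 105.4 to 111.1) against 134.5 (131.5 to 137.6), a log2 ratio of -0.31 (-0.36 to -0.26) with 1 CPM added. Otp (0.12), Arnt2 (0.08) and Sim2 (0.23) were higher and Pou3f2 (-0.20) lower. None of the 4 members with at least 5 CPM on average passed 1.5-fold, as 2.63% of 11058 genes did in either direction, and Sim2 was under that level. The median log2 ratio of all genes was 0.0681, and scaling by TMM or DESeq2 factors shifted that median by -0.0739 or -0.0917 and put Arnt2 at 0.00 or -0.02. With 1 library per arm these are differences between libraries. Other marker lists differed between the same neuron sums. The summed level of 4 choroid plexus markers was 96.5 CPM in saline and 2.9 in VPA, that of 5 thalamus-type markers 517 and 227, and that of 3 GABAergic markers 189 and 245. Their part in the Sim1 difference was not tested.

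The share of neurons in Sim1/Otp-rich clusters was 24.6% (23.2 to 26) in saline and 21.7% (20.8 to 22.7) in VPA. Within those clusters Sim1 was at 446 CPM in saline and 368 in VPA (log2 ratio -0.28, -0.33 to -0.22), Pou3f2 at 34.1 and 28.1 (-0.27, -0.49 to -0.07), Otp at 30.7 and 31.9 (0.05, -0.15 to 0.26) and Arnt2 at 298 and 294 (-0.02, -0.08 to 0.05). None of these passed 1.5-fold, as 2.92% of 11136 genes did. The VPA library was shallower, with a median of 6458 UMIs per nucleus in these clusters against 13250 in saline. Among nuclei of 5000 to 10000 UMIs in both libraries, an alternative added after seeing the data, the log2 ratio was -0.11 for Sim1, -0.0123 for Pou3f2, -0.41 for Arnt2 and 0.13 for Otp.

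Cluster by cluster, Sim1 was lower in VPA in 11 of 11 rich clusters, with log2 ratios from -0.55 to -0.06, a median of -0.27 and 6 intervals wholly below 0. One of the 11, Sall3/Pmfbp1, had 7 saline nuclei, under the limit of 10 used for the cluster levels. Of 11136 genes, 0.611% were lower in all 11. In Oxt/Myocd it was at 733 CPM in saline and 602 in VPA, in Avp/Pla2r1 at 969 and 801, and in Agtr1a/Tns1 at 383 and 260. Otp, Arnt2 and Pou3f2 were each higher in 6 clusters and lower in 5. The Sim1 pattern depended on which nuclei were kept. Among nuclei of 5000 to 10000 UMIs it was lower in 8 of 10 clusters. With doublets kept it was lower in 9 of 11.

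In Agtr1a/Tns1, the cluster with the highest Arnt2, Pou3f2 was at 41.7 CPM in saline and 16.1 in VPA (log2 ratio -1.32, -2.22 to -0.59), while Arnt2 was at 709 and 799 (0.17, 0.04 to 0.30). This was the only rich cluster whose Pou3f2 interval excluded 0. The cluster was picked for its Arnt2 level and its Pou3f2 values were seen afterwards.

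**Figure D5:**
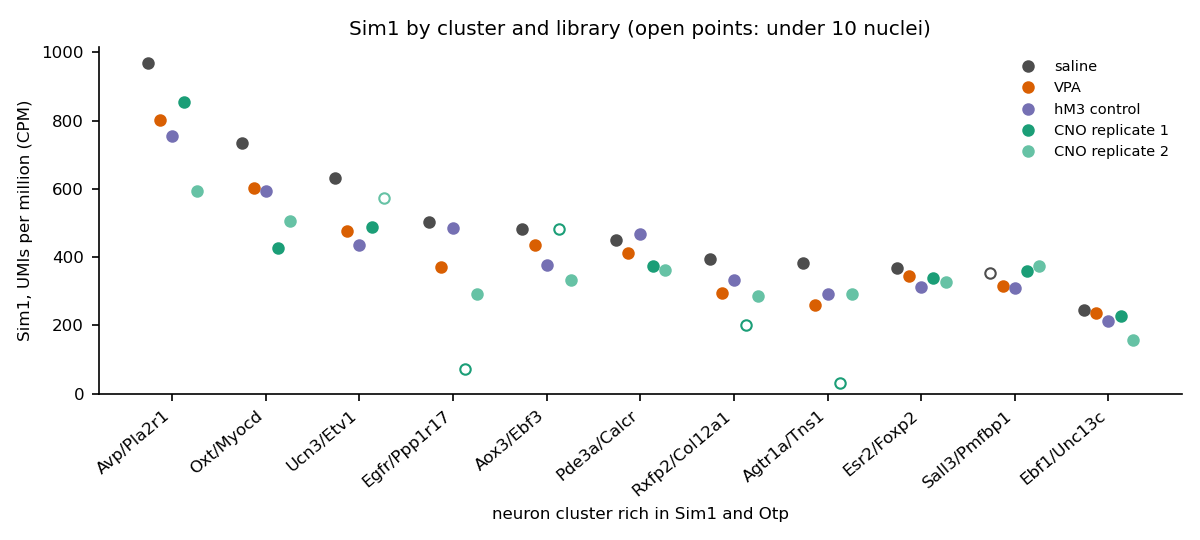
Sim1 in CPM (vertical axis, linear from 0) in each of the 11 Sim1/Otp-rich clusters, 1 point per library, open where the library had under 10 nuclei. VPA lies below saline in all 11 clusters, and Avp/Pla2r1 and Oxt/Myocd are the highest.

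The CNO comparison asked what early activation of oxytocin neurons left behind in VPA-exposed mice. In neuron-like nuclei all 5 members were lower on average in the CNO libraries than in the hM3 control, and none passed the test. With equal weight for each neuron cluster Sim2 (0.0804) and Pou3f2 (0.0473) were higher instead. Sim1 was at 95.25 CPM in the control and at 49.3 and 83.2 in the CNO libraries (log2 fold change -0.53 ± 0.29, edgeR adjusted p 0.99985, 1 residual degree of freedom, the lone control being assumed to vary like the CNO pair). Otp was at 7.86 against 4.18 and 6.81 (-0.52 ± 0.39) and Arnt2 at 186.5 against 142 and 147 (-0.37 ± 0.21). Sim2 was at 3.66 against 2.31 and 2.41 (-0.63 ± 0.43).

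Pou3f2 was at 12.9 against 6.92 and 14.1 (-0.30 ± 0.39), so the control lay between the CNO libraries. Over 19714 genes 4 were called, or 0.0203%, all higher with CNO. At an unadjusted p under 0.05 there were 756, and DESeq2 called 9. Both CNO libraries were past 1.5-fold from the control for 1.78% of 11296 genes and for none of the 4 members with at least 5 CPM. TMM or DESeq2 scaling moved the median of all genes by -0.107 or -0.115, so on those scales the members lay lower still. An exact permutation test of 1 against 2 libraries cannot give a p under 0.333.

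The libraries differed in the share of neurons in the Sim1/Otp-rich clusters, which Sim1 and Otp levels themselves define. Sim1/Otp-rich clusters made up 15.7% (14.5 to 17.1) of neurons in the hM3 control, against 7.9% (6.87 to 9.02) and 15.6% (14.2 to 17.2) in the CNO libraries. The summed level of 5 thalamus-type markers in neurons was 265, 626.6 and 720 CPM in these libraries. Its part in the results was not tested. Within the rich clusters the CNO libraries lay on average closer to the control for Sim1, Otp and Pou3f2 and not for Arnt2. Otp was at 33.25 CPM in the control and 31.7 and 31.2 in the CNO libraries, with overlapping intervals. Sim1 was at 404 against 348 and 358, Arnt2 at 312.5 against 215 and 260, and Pou3f2 at 41.8 against 32.8 and 43. Of these, Sim1 and Arnt2 were below the control in both CNO libraries with intervals that excluded 0, and none was past 1.5-fold in both, as 3.25% of 11437 genes were. The mix of rich clusters differed too: Agtr1a/Tns1, highest in Arnt2, had 50 nuclei in the control and 3 and 30 with CNO. Arnt2 was at 346 against 340 and 338.5 CPM in Avp/Pla2r1, and at 239 against 248 and 222 in Esr2/Foxp2. It was at 297 against 273 and 220 in Oxt/Myocd, and at 378 against 253 and 279 in Pde3a/Calcr. The part of the mix was not tested.

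Across all 5 libraries Otp in the rich clusters stayed between 30.7 and 33.25 CPM, a ratio of 1.08 between the highest and the lowest, although Otp helped to choose those clusters. Sim1 had a ratio of 1.28, Arnt2 1.45 and Pou3f2 1.53. In the Oxt/Myocd cluster itself, Sim1 was at 594 CPM in the hM3 control and 428 and 506 in the CNO libraries, from 57, 16 and 39 nuclei, and Pou3f2 was at 64.7, 61.2 and 54 CPM.

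The lists were read in the same way, beside 2.63% of all genes past 1.5-fold with VPA and 1.78% in both CNO libraries. Of 19 bHLH-PAS genes, 14 were at 5 CPM or more in the VPA comparison and none passed (median -0.0179 against 0.0681 for all genes). In the CNO comparison 15 were, and Npas1 alone was higher in both CNO libraries. Of 10 POU genes 5 were measured in each comparison and none passed. Of 16 effector genes 11 were measured in each. With VPA, Ebf1 was higher and Esr2 and Ebf3 lower, and in both CNO libraries Reln was lower. Of 12 peptide genes 3 were measured in the VPA comparison and none passed, and of 5 in the CNO comparison Sst and Cartpt were higher. Of the 26 factors of other regions, Six3 was higher and Tcf7l2 lower with VPA among 8 measured, and Tcf7l2 was higher with CNO among 10. In the rich clusters, where 2.92% of all genes passed with VPA and 3.25% with CNO, Avp (88.8 CPM in saline, 58.8 in VPA), Npas1 and Esr2 were lower and Ebf1 and Zic1 higher with VPA. There Ebf3 did not pass with VPA. Of the list genes at 5 CPM or more there, Tcf7l2 alone passed with CNO, and Reln and Sst did not. Npas1 and Cartpt were under that level and not measured. Npas1 was at 1.9 CPM in the hM3 control and 5.33 and 5.45 in the CNO libraries.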

How the data were processed

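Per the submitters' processing notes, the authors made the matrices with Cell Ranger 7.0.1 on mm10. The deposited values are raw UMI counts per gene and nucleus, and intron and strand use are not given in the sources used here. Nuclei under 1000 UMIs or above 5% mitochondrial UMIs were dropped, and the top Scrublet scores (0.8% per 1000 nuclei) were removed as doublets. Clusters (2000 variable genes without the 5 members, Oxt, Avp and Cre, 30 principal components, Leiden resolution 1, neurons again at 2) were named from markers. Mixed clusters with 1161 nuclei, led by macrophage genes or, in 2 neuron clusters, by oligodendrocyte or mitochondrial genes, were set aside after the clusters were seen. They were uneven over libraries, with 17 nuclei in saline, 15 in VPA, 226 in the hM3 control, and 232 and 671 in the CNO libraries. What setting them aside did to the CNO comparison was not tested.

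Sums of counts were scaled to total UMIs (CPM), with 1 CPM added in log2 ratios, and tested with edgeR 4.0.16 (quasi-likelihood). DESeq2 1.42.0 was an alternative. Genes named are the members, the 5 most like each, the 5 most changed each way with Sim1, and list genes. The members and lists were chosen with earlier results of these data known. A custom Cre feature (20 UMIs) was left out. On simulated data, the test by Sim1 found 60% of 200 changed genes with 8 false calls (14698 genes), and the CNO test 74% with 11 (20184 genes). The result of 1 list gene is not reported here.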

Additional observations from a re-analysis of the deposited data

How the results depend on the processing

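Depth limits what can be read of Sim2, Otp and Pou3f2, which few nuclei show at 2000 UMIs, and 1 library per arm limits both exposures. Settings named as added were chosen after seeing the data. No paired analysis was possible because the CNO and hM3 control groups share fewer than 2 replicate numbers, and the saline and VPA groups have 1 library each.

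For VPA against saline in neurons, the log2 ratio of Sim1 was -0.39 with TMM factors, -0.41 with DESeq2 factors and -0.24 with equal weight for each cluster. That of Arnt2 was 0.0019 with TMM factors, -0.0167 with DESeq2 factors and -0.10 with a marker gate in place of clusters. That of Sim2 was 0.63 with the gate and -0.0199 with equal weight, and that of Pou3f2 -0.44 with the gate. Among nuclei of 5000 to 10000 UMIs in the rich clusters (added), Sim1 was at -0.11, Arnt2 at -0.41 and Pou3f2 at -0.0123.

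For CNO against the hM3 control, equal weight gave 0.0804 for Sim2 and 0.0473 for Pou3f2, against negative main values. Leaving out each CNO library gave -0.81 to 0.12 for Pou3f2, the higher value without CNO replicate 1. Over the same 2 settings Sim1 ranged from -0.94 to -0.19, Otp from -0.77 to -0.18, and the share of neurons in rich clusters from -7.85 to -0.0989 points. Genes called were 33 with doublets kept, 38 with the gate, 64 without a filter and 9 with DESeq2, against 4. The cause was not tested.

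Without thinning, the share of neurons with a UMI moved by -8.43 points for Sim1, -0.864 for Sim2, -3.92 for Otp, -17.7 for Arnt2 and -6.37 for Pou3f2 in VPA, and by -5.02, -1.29, -3.7, -12.9 and -4.48 points with CNO. These shares depend on depth, and VPA neurons had a median of 6189 UMIs against 13269 in saline. At 2000 UMIs the VPA share was higher for Arnt2 (29.02 against 28.59% in saline), Otp (1.904 against 1.551%) and Sim2 (0.878 against 0.657%). It was lower for Sim1 (13.27 against 16.82%) and Pou3f2 (1.958 against 2.602%). With CNO, Arnt2 was at -4.1 points at 1000 UMIs and -8.38 at 4000, and Otp at -0.851 at 4000.

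Genes called between nuclei with and without a member depended on depth. For Sim1, Sim2, Otp, Arnt2 and Pou3f2 in turn they numbered 713, 114, 94, 182 and 159 at 1000 UMIs, and 2631, 669, 698, 854 and 618 at 4000. DESeq2 called 870, 99, 131, 182 and 113. With no replicate block (library not a term) they numbered 531, 150, 79, 1 and 25. Glutamatergic nuclei alone gave 882 for Sim1, 110 for Sim2 and 118 for Otp, and a minimum of 2 UMIs of the member gave 27 for Sim2 and 0 for Otp, by edgeR. Leaving out each library gave 111 to 258 for Sim2, lowest without the hM3 control, 278 to 492 for Arnt2 and 154 to 220 for Pou3f2, both lowest without saline.

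Other members called higher with Sim2 were 0 in place of 1 at 1000 UMIs, with 2 UMIs, in glutamatergic nuclei, without a filter and with no replicate block, and 0 to 1 when each library was left out. With Otp they were 1 in place of 2 at 1000 UMIs, in glutamatergic nuclei, without a filter and with no replicate block, 0 with 2 UMIs, and 1 to 2 when each library was left out, 1 without saline or the hM3 control. With Pou3f2 the same settings gave 1, 0 and 1 to 2, 1 without saline. With Arnt2 they were 0 with no replicate block, 1 at 1000 UMIs and 2 in glutamatergic nuclei, against 3, and 2 to 3 when each library was left out, 2 without saline. DESeq2 called 2 and gave no adjusted p for Otp.

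Single values that changed sign were Sim1 by Sim2 in glutamatergic nuclei (-0.72), Pou3f2 by Otp at 1000 UMIs (-0.24), and Sim2 by Arnt2 with no replicate block (0.0263) or without CNO replicate 1 (0.0584). With 2 UMIs of the member, Arnt2 was at -0.0689 by Otp and -0.33 by Pou3f2, and 4 fitted values had SEs of 7.58 to 9.32 and are no bound, Otp by Sim2 (-8.09), Pou3f2 by Sim2 (-8.45), Otp by Pou3f2 (-8.05) and Pou3f2 by Otp (-8.70). At 4000 UMIs Pou3f2 by Otp (1.21) and Otp by Pou3f2 (1.16) passed the test they had missed.

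Co-detection, as the mean log2 of observed over expected, moved when the expected number was taken within clusters (added), to 0.25 for Sim1 and Otp, 0.21 for Sim1 and Pou3f2, -0.16 for Sim1 and Sim2, 0.0822 for Sim1 and Arnt2, 0.0146 for Otp and Arnt2, 0.0676 for Otp and Pou3f2 and 0.15 for Arnt2 and Pou3f2. In glutamatergic nuclei it was 1.16 for Sim1 and Otp and -0.26 for Sim1 and Sim2. At 1000 UMIs it was 1.45 for Sim1 and Sim2 and -0.11 for Otp and Pou3f2, and at 4000 UMIs 1.48 for Sim1 and Sim2 and 0.41 for Sim1 and Arnt2. Pairs above the expected number in every library were 4 at 1000 UMIs, 4 in glutamatergic nuclei and 1 within clusters, against 7.

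Of the 5 genes most like each member, Spearman's rho shared 1 for Arnt2, 2 for Otp, 2 for Pou3f2 and 1 for Sim2, and a pseudocount of 1 CPM shared 3 for Pou3f2 and 3 for Sim2. Of the other values under alternatives, 309 of the main comparisons and 182 of the single genes kept their direction and side of the threshold or moved by less than the spread.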
